A study of Canis lupus familiaris with 77 samples.

Results

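The 6 mature miRNAs described here, miR-142-5p, miR-142-3p, miR-146a, miR-146b, miR-150 and miR-155, are known chiefly from white blood cells. They were chosen by name from the 650 miRNAs with at least 1 read in a small RNA sequencing atlas of the beagle dog, and all 6 were found: cfa-miR-142 (the 5p arm), cfa-miR-146a, cfa-miR-146b, cfa-miR-150 and cfa-miR-155 under dog names, and hsa-miR-142-3p under the human name of its locus. They come from 5 hairpins. The study mapped which miRNAs mark which organ. Organs and fluids were taken from 5 untreated male Marshall beagles aged 10 months, which were perfused with phosphate buffered saline to lower the share of blood in each organ. The 76 libraries with values fall into 16 tissues: liver, heart, testis, lung, skeletal muscle, kidney, thymus, brain, sciatic nerve, pancreas, duodenum, jejunum, ileum, colon, bone marrow and plasma. Colon had 4 libraries, sciatic nerve had 2, and the other 14 tissues had 5 apiece. All groups share the same dogs and no treatment, and the labels do not say which dog gave which library. The sources differ on whether the sciatic nerve libraries are separate dogs or portions of a pool, so the spread between those libraries may be technical. Bone marrow RNA and plasma RNA were extracted by other routes than the solid organs, so tissue and extraction cannot be told apart in any comparison with those 2 groups.

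Mature miRNAs are short RNAs cut from the arms of a hairpin precursor, and they lower the output of mRNAs that pair with them. The miR-142 hairpin is transcribed in blood-forming cells and both of its arms are used. miR-146a and miR-146b come from separate genes, have nearly the same mature sequence and are induced by NF-κB in a negative feedback on Toll-like receptor signalling. miR-150 is abundant in mature B and T lymphocytes, where it acts on MYB. miR-155 is cut from the BIC transcript and rises when lymphocytes and macrophages are activated. In a whole organ these RNAs can come from resident or passing blood cells as well as from the organ's own cells. In such bulk samples more leukocytes and more of the RNA per cell cannot be told apart.

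Library totals ran from 157871 to 7896424 miRNA reads with a median of 1364823, and the levels below are in RPM, the reads per 1000000 miRNA reads. A count of 0 allows up to 3 reads, which is 0.380 RPM at the greatest depth and 19.0 RPM at the smallest. These limits cover counting error only. Bone marrow was shallow throughout, with totals of 162310 to 239023 reads. Of the 456 member values, 12 rested on 3 reads or fewer. The labelled tissues were compared with marker lists. In 9 of the 54 libraries with a list of their own tissue, the list summed to less than 1 in 5 of that of the tissue's highest library: thymus 2, 3 and 5, duodenum 3, 4 and 5, skeletal muscle 4 and testis 2 and 3. The comparisons that rest on these libraries are also given without them.

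miR-142-5p, the more heavily sequenced arm of the miR-142 hairpin, was highest in plasma, where the 5 libraries held 12752, 34644, 22440, 23395 and 21772 RPM, a mean of 23000 ± 7788 RPM (SD, n = 5). It was the seventh most abundant miRNA there by median, from 3504 to 61176 reads. Ileum held 15069, 14214, 13936, 4475 and 11443 RPM. Bone marrow held 17682, 9292, 11079, 13552 and 9988 RPM. The ranges of these 3 tissues overlap, and every bone marrow library lay above every colon library (4828 to 8415 RPM), which is the only gap between neighbours in the order of medians for this arm. Jejunum (3206 to 13501 RPM), liver (1753 to 3777 RPM) and lung (704 to 2136 RPM) followed. At the low end, the medians of pancreas, skeletal muscle, brain, sciatic nerve, kidney and testis were between 146 RPM in testis and 320 RPM in pancreas, with overlapping ranges. The highest tissue median was 153 times the lowest.

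miR-142-3p, the other arm of that hairpin, did not keep the same order. It was highest in ileum, with 2162, 1735, 1797, 589 and 2251 RPM. Jejunum (557 to 1572 RPM), bone marrow (538 to 1189 RPM) and colon (542 to 1268 RPM) came next, overlapping each other and the lowest ileum library. Plasma, the highest tissue for the 5p arm, ranked below all 4 of these for the 3p arm, with 142, 1284, 238, 406 and 346 RPM. Lung (46.6 to 138 RPM) did not overlap pancreas (17.0 to 23.7 RPM), the next tissue in the order, and this was the only gap between neighbours. In testis, 2 libraries held no read of the 3p arm and the others held 4.44, 13.7 and 10.4 RPM. A count of 0 there allows up to 11.3 RPM in testis 1 and 10.9 RPM in testis 2, so these levels could not be ordered against brain, kidney, sciatic nerve or skeletal muscle at this depth.

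**Figure D1:**
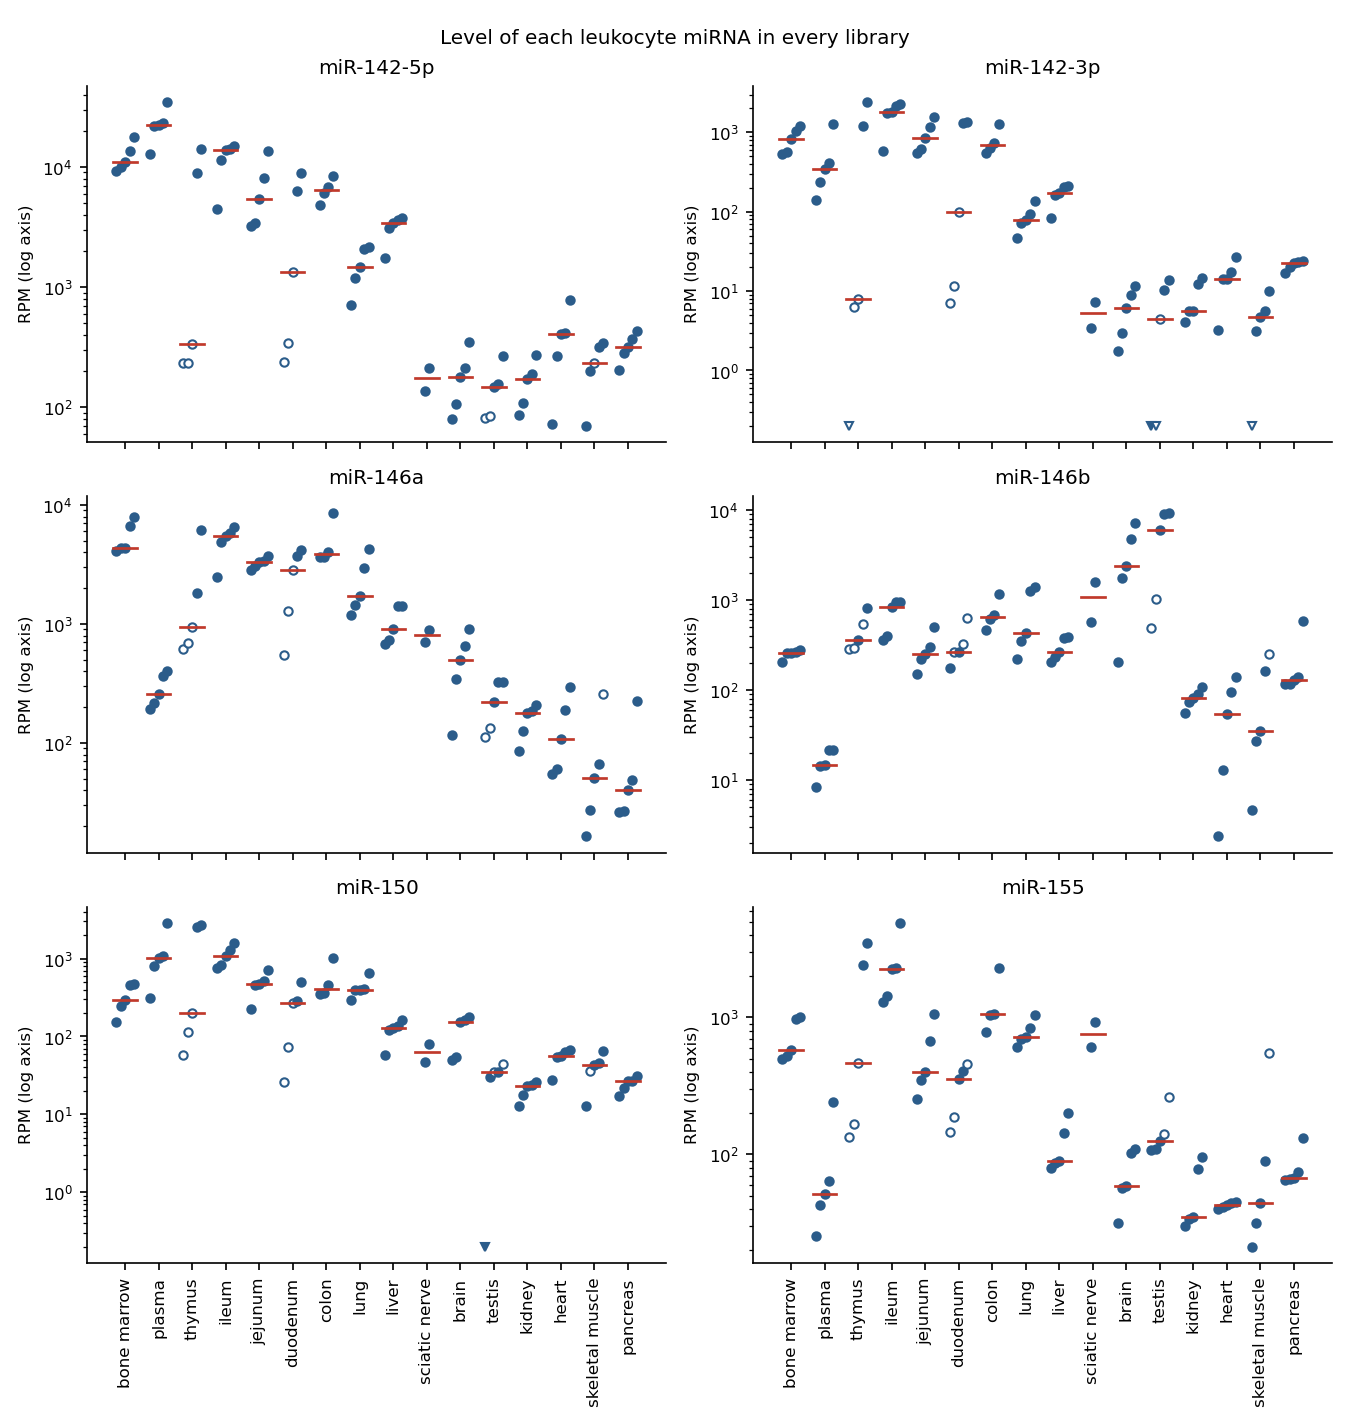
RPM on a log axis against tissue for each of the 6 miRNAs. A point is a library, triangles at the bottom mark libraries with no read (drawn at 0.2 RPM), open symbols mark the 9 libraries with low markers of their own tissue, and the red line is the tissue median. miR-146b is the only miRNA whose top tissues are testis and brain, and the open thymus and duodenum points lie well below the filled ones for miR-142-5p and miR-142-3p.

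miR-146a, the feedback inhibitor of Toll-like receptor signalling, was highest in ileum, bone marrow and colon. Ileum held 5763, 5536, 4925, 2464 and 6530 RPM. Bone marrow held 4325, 4121, 4329, 7961 and 6723 RPM, and the 4 colon libraries held 3648, 4036, 3669 and 8630 RPM. Jejunum was the most even tissue of this group at 3272 ± 348 RPM (SD, n = 5). In plasma miR-146a was much lower, with 193, 219, 257, 363 and 400 RPM, all below the lowest library of ileum, colon, jejunum, bone marrow, duodenum, thymus and lung. The lowest medians were those of skeletal muscle (50.7 RPM) and pancreas (39.99 RPM). No neighbouring tissues in its order had separate ranges.

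miR-146b, its close relative from another gene, was distributed differently from the other 5 members. Testis held 5983, 1021, 491, 9295 and 9047 RPM. Testis libraries 2 and 3, the low ones, are those with low testis markers, and the other 3 averaged 8108 ± 1844 RPM (SD, n = 3). Brain held 4739, 2406, 205, 7064 and 1762 RPM, a 34.5-fold spread with the low value in brain 3. The 2 sciatic nerve libraries held 1566 and 563 RPM. Plasma was the lowest tissue, with 21.8, 8.49, 14.4, 14.7 and 21.4 RPM from 6 to 31 reads, 407 times below testis by the ratio of medians. Bone marrow was narrow at 206 to 276 RPM. A read that matches both miR-146 genes could be counted under either name, and how such reads were divided is not given in the sources used here.

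miR-150, the miRNA of mature lymphocytes, was highest in ileum (1067, 761, 1269, 822 and 1561 RPM) and in plasma (313, 2850, 1023, 1083 and 805 RPM), whose ranges overlap. Jejunum (228 to 712 RPM), colon (347 to 1001 RPM) and lung (291 to 646 RPM) followed. Bone marrow held 154, 297, 459, 243 and 464 RPM, from 25 to 101 reads. Thymus spanned the whole scale, from 57.0 to 2689 RPM. Kidney was lowest, between 12.8 and 25.9 RPM. The highest tissue median was 45.4 times the lowest, the smallest such span of the 6, and all neighbours in the order overlap.

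miR-155, the product of the BIC transcript, was highest in ileum, with 2291, 1295, 2264, 1441 and 4873 RPM. Of the 71 libraries of other tissues, 3 reached the lowest ileum value. Colon (776, 1061, 1043 and 2298 RPM), sciatic nerve (917 and 602 RPM) and lung (612 to 1047 RPM) followed, with overlapping ranges. Bone marrow held 1010, 519, 497, 973 and 579 RPM. Plasma was low, with 25.5, 240, 51.2, 42.8 and 64.3 RPM, and the narrowest tissue was heart at 42.6 ± 2.03 RPM (SD, n = 5). Skeletal muscle held 89.8, 21.1, 44.0, 553 and 31.7 RPM, where the high value is the library with low striated muscle markers (703 RPM summed, against 38556 to 113826 RPM in the other 4).

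After the criteria of the study, a miRNA was called tissue enriched (TE) when its mean RPM in a tissue was over 5 times that of all other samples and the exact rank-sum test (two-sided) gave an adjusted p under 0.05. A filter not among those criteria was added here, a median over 100 RPM in some tissue, and without it 4 members were called as well. Over all miRNAs and tissues, 178 of 7801 combinations (2.28%) met them. Among the 96 combinations of member and tissue there were 4, with backgrounds of 3.84% in plasma, 0.388% in ileum and 3.98% in testis. These shares count every miRNA detected, also those that the filter bars from a call, while all 6 members pass the filter. The ileum background is 2 of 516 miRNAs, which are the 2 members named below. miR-142-5p was enriched 6.47-fold in plasma (adjusted exact p = 4.03e-05). miR-146b was enriched 9.45-fold in testis (mean 5167 against 547 RPM, adjusted exact p = 0.00406). In ileum, miR-155 was enriched 5.98-fold (2433 against 407 RPM, adjusted exact p = 0.0055) and miR-142-3p 5.39-fold (1707 against 316 RPM, adjusted exact p = 0.0169). No member was called in the other 13 tissues, whose backgrounds ran from 0.0% in thymus and duodenum and 0.636% in lung to 3.56% in pancreas and 14.0% in brain. None of the 4 groups lay wholly above all other samples. The 2 ileum calls depended on single libraries: the miR-155 call was lost without ileum 2, 3 or 5, when the fold was between 4.48 and 6.68, and the miR-142-3p call was lost without ileum 1, 2, 3 or 5, at folds of 4.96 to 5.37. miR-142-3p in ileum also missed the fold threshold on a TMM scale (4.996) or a DESeq2 scale (4.37) and without the 9 libraries with low own markers (4.74). On both of those scales miR-150 in plasma passed the threshold (3.795-fold on RPM, adjusted exact p = 0.0052, against 6.08-fold with TMM and 6.61-fold with DESeq2 size factors). miR-146b in brain, at 4.74-fold (adjusted exact p = 0.0169), was called without brain 3 (5.85) and without testis 1, 4 or 5 (5.33, 5.78 and 5.74).

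Each tissue was then compared with the mean of the other 15 on the counts with edgeR's quasi-likelihood test, fitted over 480 miRNAs. Of the 96 combinations of member and tissue, 39 were higher (24.6% of all miRNA and tissue combinations were) and 38 lower (14.3%). Colon had all 6 members higher (background 18.5%, and 6.46% lower). Heart and kidney had all 6 lower (17.3% and 10.2%) and none higher (21.9% and 24.2%), though the kidney call of miR-146b was lost without kidney 1 (-1.34) or kidney 5 (-1.48). miR-142-5p was called in 15 of the 16 tissues and miR-142-3p and miR-155 in 14, whereas miR-146b was called in 8. The median change of all 480 miRNAs was farthest from 0 in bone marrow and plasma, where changes relative to it are also given, and lay between -0.38 (pancreas) and 0.32 (testis) in the other tissues.

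In ileum 5 members were higher (background 19.0%), all but miR-146b, and none lower (8.75%). miR-146b, at 0.96 with all libraries (adjusted p = 0.0686), was called higher in ileum without the 9 libraries (1.04) and without ileum 4 (1.16). miR-142-3p had the largest change at a log2 fold change of 4.47 ± 0.39 (SE, adjusted p = 8.80e-16), then miR-155 at 3.195 ± 0.27 (adjusted p = 1.51e-16), miR-142-5p at 3.15 ± 0.32, miR-150 at 2.73 ± 0.30 and miR-146a at 2.71 ± 0.29. Jejunum also had 5 higher (27.3%) and none lower (13.1%), again without miR-146b (-0.25 ± 0.46, adjusted p = 0.835), and its miR-155 call was lost without jejunum 3 (0.82). In duodenum 3 were higher (21.0%) and none lower (3.75%): miR-142-3p at 2.85, miR-146a at 1.93 and miR-142-5p at 1.44, the last of which was lost without duodenum 2 (0.47). Without the 9 libraries these 3 were at 4.03, 2.38 and 2.496, and miR-150 was called higher too (1.13). The duodenum libraries left are also the highest of duodenum for each of these members, and were kept after seeing the data. In colon the change of miR-146b was the smallest of the 6 (1.22 ± 0.44, adjusted p = 0.0308), and it missed the threshold with library size or RLE scaling, with DESeq2 and without colon 1, 3 or 5.

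In plasma 3 members were higher (27.9%) and 2 lower (24.8%), against a median change of -0.59 over all miRNAs. miR-142-5p was higher by 5.05 ± 0.30 on the log2 scale (adjusted p = 4.23e-24), which is 5.63 above that median, miR-150 by 3.64 ± 0.28 (adjusted p = 3.82e-19) and miR-142-3p by 3.22 ± 0.42. miR-146b was lower, at -3.88 ± 0.65 (adjusted p = 3.99e-07), and so was miR-155, at -1.20 ± 0.41 (adjusted p = 0.00983), a call that was lost without either sciatic nerve library. The plasma libraries held 545235 to 816358 RPM of the erythroid miRNAs miR-144, miR-451 and miR-486, with 42.3% to 76.1% of the reads in miR-486 alone, against at most 274996 RPM in any other tissue. Skeletal muscle, apart from library 4, also held 45620 to 105990 RPM of miR-486, with 453 to 3996 RPM of miR-451. Bone marrow held 52663 to 93202 RPM of miR-486. For miR-451, plasma held 52993 to 116508 RPM and bone marrow 30394 to 53472 RPM. Whether red cell RNA in the plasma bears on the members' levels was not tested. With the erythroid rows taken out of the totals, the TE fold of miR-150 in plasma was 10.03 and that of miR-142-3p in ileum fell below the threshold, to 4.47.

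Bone marrow had 4 members higher (16.5%) and none lower (24.6%): miR-142-3p at 3.005 ± 0.43, miR-142-5p at 2.85 ± 0.33, miR-146a at 2.52 ± 0.29 (adjusted p = 4.27e-11) and miR-155 at 1.02 ± 0.33 (adjusted p = 0.00894). The median of all miRNAs there was -0.97, so these lie 3.98, 3.82, 3.50 and 1.99 above it. The miR-155 call was lost in 5 of the 76 fits that each left out a library. miR-150 was not called at 0.61 ± 0.37 (adjusted p = 0.213), but passed with library size scaling (1.01), RLE scaling (0.93), DESeq2 (0.93) and no filter on low counts (1.05), and without bone marrow 1 or 4 (1.32 and 1.20). Thymus had 5 higher (21.2%) and none lower (5.21%), led by miR-142-3p at 3.02 ± 0.42 and miR-150 at 2.72 ± 0.30 (adjusted p = 1.23e-11). The miR-142-5p call (1.62) was lost without thymus 1 (0.85) and the miR-146a call (1.39) without thymus 4 (0.37). Without the 9 libraries the same 5 members were higher in thymus, by 2.22 for miR-146a to 4.18 for miR-142-3p. The thymus libraries left, kept after seeing the data, are also the highest of thymus for every member but miR-146b. Lung had 4 higher (20.6%) and none lower (8.75%): miR-146a at 1.49, miR-155 at 1.45, miR-150 at 1.18 and miR-146b at 1.02, while the miR-142 arms there were at -0.17 and -0.24 and were not called. The lung calls of miR-150 and miR-146b were lost with RLE scaling (0.71 and 0.50) and with DESeq2. Liver had miR-142-5p higher (23.3%) at 1.40 ± 0.38 and miR-155 lower (12.5%) at -1.12 ± 0.40. The first was lost with RLE scaling (0.93) and DESeq2 (0.93), the second without liver 1, 2 or 3. miR-142-3p in liver, at 1.20 ± 0.50 (adjusted p = 0.0503), was called higher without the 9 libraries (0.94) and without liver 4 (1.38).

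**Figure D2:**
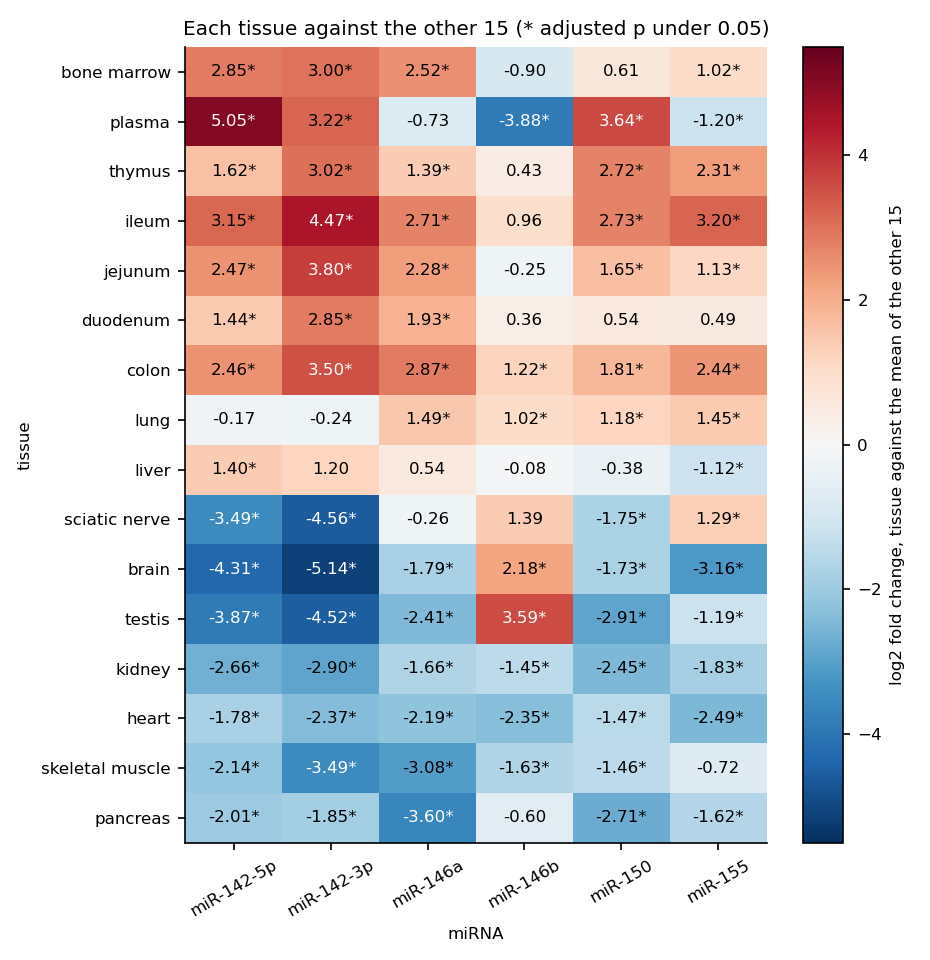
Log2 fold change of each tissue (rows) against the mean of the other 15, for the 6 miRNAs (columns), with red for higher and blue for lower. An asterisk marks an adjusted p under 0.05 in edgeR's quasi-likelihood test. Testis and brain are blue in 5 columns and red in the miR-146b column.

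Brain and testis each had miR-146b as their only higher member (background 45.2% and 34.0%) and the other 5 lower (28.1% and 16.0%). miR-146b was at 3.59 ± 0.32 in testis (adjusted p = 1.30e-15) and at 2.18 ± 0.36 in brain (adjusted p = 1.80e-07). The miR-142 arms were far lower: miR-142-3p was at -5.14 ± 0.86 in brain and -4.52 ± 0.91 in testis, and miR-142-5p at -4.31 ± 0.63 and -3.87 ± 0.61. Without the 9 libraries the same 6 calls held in testis, with miR-146b at 4.24, and the TE fold of miR-146b in testis was 14.3. The testis libraries left are also the highest of testis for miR-146b and were kept after seeing the data. Neither value is thus a separate test. The brain median over all miRNAs moved from 0.13 with TMM to 1.22 with library size scaling, and with library size scaling miR-146a (-0.67) and miR-150 (-0.52) were no longer called in brain. In testis miR-155 (-1.19 ± 0.41 with all libraries) was not called with library size scaling, RLE scaling or DESeq2. In sciatic nerve the calls for miR-155 (higher at 1.29 ± 0.48, adjusted p = 0.0259, background 24.8%), miR-150 and miR-142-3p (lower, 14.4%) were lost when either library was left out, and that for miR-142-5p without sciatic nerve 1. miR-146b, at 1.39 ± 0.59 in sciatic nerve (adjusted p = 0.0546), was called higher with library size scaling (1.75), RLE scaling (1.44), without the 9 libraries (1.43) and without sciatic nerve 2 (2.12).

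Pancreas and skeletal muscle had 5 members lower each (19.2% and 16.5%). The lowest in pancreas was miR-146a at -3.60 ± 0.52 (adjusted p = 2.04e-08). In skeletal muscle the lowest were miR-142-3p at -3.49 ± 0.85 and miR-146a at -3.08 ± 0.51. miR-155 in skeletal muscle was not called (-0.72 ± 0.40, adjusted p = 0.141), but without the library with low striated muscle markers it was lower by 1.84 on the log2 scale. That library is also the highest of skeletal muscle for miR-155. In heart miR-155 was the lowest at -2.49 ± 0.46, with miR-146b at -2.35 ± 0.56. In kidney miR-142-3p was at -2.90 ± 0.73 and miR-150 at -2.45 ± 0.49.

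Thymus, the organ of T cell maturation, showed a wide spread between its libraries. In libraries 1 to 5 in turn, miR-142-5p held 14022, 234, 234, 8991 and 335 RPM. For miR-142-3p the values were 2401, 0, 6.27, 1203 and 7.89 RPM, where the 0 allows up to 19.0 RPM. miR-150 held 2543, 57.0, 113, 2689 and 197 RPM, and miR-155 held 2401, 133, 166, 3487 and 467 RPM. Thymus 1 and 4 were thus high, and 2, 3 and 5 low, for all 4 of these members. miR-146a (1807, 690, 618, 6208 and 950 RPM) and miR-146b (358, 285, 294, 805 and 542 RPM) spread less.

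The lymphoid list (miR-181a, miR-181b and miR-342, which brain also holds at 165025 to 392735 RPM) followed the same split in thymus. It summed to 457329 and 529711 RPM in thymus 1 and 4, and to 55254, 45273 and 56808 RPM in thymus 2, 3 and 5. The smooth muscle list (miR-143 and miR-145) was 33318 and 15985 RPM in the former and 133742, 92953 and 96585 RPM in the latter, and the endothelial list (miR-126) was 10783 and 4792 against 29480, 32054 and 31221 RPM. Thymus 2, 3 and 5 thus had fewer lymphoid and more smooth muscle and endothelial reads than thymus 1 and 4, and the part of this in the members' levels was not tested. Over thymus 1 and 4 alone, miR-150 averaged 2616 ± 103 RPM and miR-155 2944 ± 768 RPM (SD, n = 2), above the means of bone marrow (324 and 716 RPM) and ileum (1096 and 2433 RPM). These 2 libraries were picked after seeing the data and are the highest of thymus for both miRNAs. For miR-155 both (2401 and 3487 RPM) lay within the ileum range of 1295 to 4873 RPM. Over all 5 thymus libraries the means were 1120 RPM for miR-150 and 1331 RPM for miR-155, the latter below ileum.

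**Figure D3:**
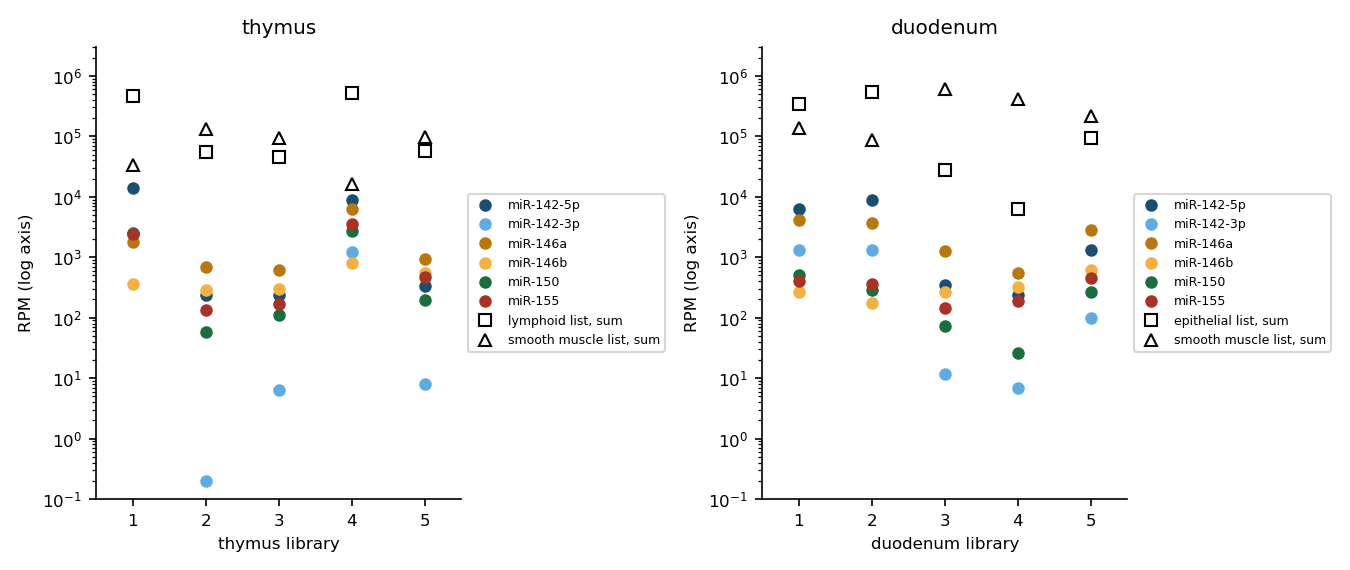
RPM on a log axis of the 6 miRNAs (coloured points) and the summed RPM of marker lists (open squares and triangles) in the 5 thymus and the 5 duodenum libraries. A library with no read is drawn at 0.2 RPM. In thymus 1 and 4 the lymphoid list lies above the smooth muscle list, and in thymus 2, 3 and 5 the lists change places while the members other than miR-146b drop. Duodenum 3, 4 and 5 have the smooth muscle list above the epithelial list.

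Duodenum was split in a like way. miR-142-5p held 6346, 8984, 343, 236 and 1335 RPM in libraries 1 to 5. miR-142-3p held 1339, 1296, 11.5, 7.00 and 99.9 RPM, and miR-146a held 4156, 3697, 1279, 553 and 2845 RPM. Libraries 1 and 2 were the highest for these 3 members. The epithelial list (the miR-200 family, miR-192, miR-194 and miR-215) summed to 337164 and 542603 RPM there, against 27258, 6245 and 92526 RPM in libraries 3, 4 and 5. The smooth muscle list was 137019 and 86037 against 616236, 413299 and 213583 RPM. miR-155 (404, 355, 145, 187 and 455 RPM) and miR-146b (266, 178, 265, 326 and 626 RPM) did not follow the split, since library 5 was the highest for both. The part of the epithelial and smooth muscle shares in the members' levels was not tested.

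The members were then compared in 4 pairs of tissues within the same edgeR fit. The share of all miRNAs with separate ranges in these pairs was not counted. Where members' ranges are said to overlap or not, this is a description and no trait particular to them. Thymus against bone marrow asks how the organ of T cell maturation differs from the source of all blood cells. miR-150 was higher in thymus by 1.98 ± 0.55 on the log2 scale (SE, adjusted p = 0.00258) and miR-155 by 1.21 ± 0.50 (adjusted p = 0.0483), 2 of 6 members where 27.5% of all miRNAs were higher, with a median of 0.78. No member was lower (background 10.2%). Ranges overlapped for 5 of the 6, and miR-146b was higher in every thymus library than in any bone marrow library but was not called (1.24 ± 0.63, adjusted p = 0.117). The outcome depended on thymus 4: without it neither call remained (1.24 for miR-150, 0.37 for miR-155), and miR-142-5p and miR-146a were then called lower (-1.63 and -2.09). The miR-155 call held in 21 of 76 fits that each left out a library. Neither call passed when only these 2 tissues were fitted (adjusted p = 0.163 and 0.358).

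Without the 9 libraries with low own markers, which leaves 2 thymus libraries, 3 members were higher in thymus than in bone marrow: miR-150 by 3.09 (adjusted p = 1.71e-08), miR-155 by 2.27 (adjusted p = 1.35e-05) and miR-142-3p by 1.27 (adjusted p = 0.0132). On the same fit miR-142-5p stood at 0.05 and miR-146a at -0.23. The 2 thymus libraries left were kept after seeing the data, and are also those of thymus highest for miR-150, miR-155 and miR-142-3p. The adjusted p-values of that fit are thus no separate test of these members. Beside these, 3 of 5 tested lymphoid list rows were higher in thymus and both rows of the myeloid miR-223 hairpin were lower, in the fit of all libraries.

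Plasma against bone marrow compares the circulating fluid with the tissue that makes its cells. miR-142-5p was higher in plasma by 2.06 ± 0.62 (adjusted p = 0.00396) and miR-150 by 2.84 ± 0.57 (adjusted p = 2.49e-05), 2 of 6 against a background of 26.5%. The other direction held 3 of 6 against 16.7%: miR-146a was lower by -3.05 ± 0.56 (adjusted p = 5.01e-06), miR-146b by -2.80 ± 0.70 and miR-155 by -2.08 ± 0.52. For these 3 the ranges of plasma and bone marrow did not overlap. miR-142-3p, unlike the 5p arm of the same hairpin, was at 0.20 ± 0.75 (adjusted p = 0.982). The miR-142-5p call was lost with library size scaling (0.90, adjusted p = 0.333) and without plasma 2 or bone marrow 1, 3, 4 or 5 (1.47 to 1.58). Both rows of the myeloid miR-223 hairpin were lower in plasma than in bone marrow, 3 of the 4 erythroid rows were higher and 3 of 5 lymphoid rows were lower.

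Plasma against thymus gave miR-142-5p higher by 3.22 ± 0.65 (adjusted p = 2.12e-05, 1 of 6 against 21.7%). Lower were miR-146b by -4.04 ± 0.72 (adjusted p = 2.54e-06), miR-155 by -3.29 ± 0.54 and miR-146a by -1.99 ± 0.53, which is 3 of 6 against 31.2%. For miR-146a and miR-146b every plasma library was below every thymus library. Without thymus 4, miR-146a was no longer called (-0.97) and miR-150 was called higher (1.60). Without the 9 libraries, miR-142-3p was called lower in plasma (-1.10, adjusted p = 0.0263) where it had been at 0.19 ± 0.75 with all of them. That fit, too, keeps only the thymus libraries highest for miR-142-3p. These contrasts with plasma share its libraries, as those with thymus or bone marrow share theirs.

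Ileum against duodenum compares the end of the small intestine with its start. miR-155 was higher in ileum by 2.53 ± 0.52 (adjusted p = 0.000384) and miR-150 by 2.05 ± 0.55 (adjusted p = 0.00829), 2 of 6 where 3.75% of all miRNAs were higher. No member was lower (background 8.54%). For both of them every ileum library lay above every duodenum library, the closest being 1295 against 455 RPM for miR-155 and 761 against 499 RPM for miR-150. miR-142-5p (1.60 ± 0.61, adjusted p = 0.0688) and miR-142-3p (1.52 ± 0.77, adjusted p = 0.192) were not called, but were without duodenum 2 (2.62 and 2.42). Without the 9 libraries, which leaves duodenum 1 and 2, miR-155 stood at 2.53 (adjusted p = 0.00042), while miR-150 was at 1.46 (adjusted p = 0.0751) and the miR-142 arms at 0.47 and 0.25. No row of the lymphoid or epithelial lists was called between these segments, and 1 of the 2 miR-223 rows was higher in ileum.

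**Figure D4:**
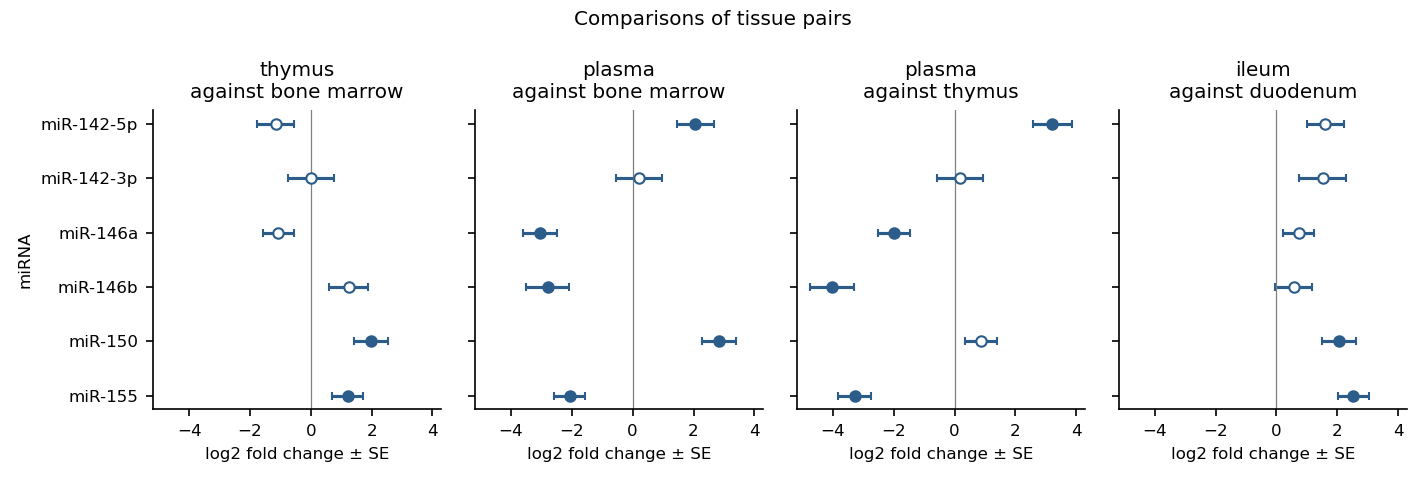
Log2 fold change of the 6 miRNAs in 4 pairs of tissues, with bars for the standard error as formed from the test statistic. Filled points have an adjusted p under 0.05 in edgeR's quasi-likelihood test. miR-146a, miR-146b and miR-155 lie left of 0 in both comparisons of plasma, and miR-150 and miR-155 are the filled points in ileum against duodenum.

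Ratios of members within a library do not depend on how libraries are scaled, and are given as descriptions without a test, with 0.5 reads added to each count. Reads of miR-142-5p exceeded those of miR-142-3p in 76 of 76 libraries. The ratio was 6.33 by median in jejunum (5.21 to 8.59), 7.60 in ileum (5.08 to 8.19), 8.38 in colon and 14.8 in bone marrow (12.97 to 18.5). In plasma it was 62.9 (27.0 to 94.2), and none of the plasma libraries overlapped jejunum, ileum, colon or bone marrow. The plasma range did overlap those of duodenum (up to 31.9), heart (29.3), kidney (38.7), brain (40.6) and sciatic nerve (54.6). Skeletal muscle (up to 103) and testis (up to 143) reached above plasma, from libraries with 0 to 17 and 0 to 9 reads of the 3p arm. In thymus the ratio was 5.84 to 75.0, a range that also includes libraries with 0 to few reads of the 3p arm. Reads of different miRNAs do not measure their relative amounts, so the ratios are compared between tissues only.

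For the miR-146 pair, miR-146b had fewer reads than miR-146a in 57 of 76 libraries. Every library of testis (4.34 to 28.6, median 26.7), brain (1.75 to 9.56, median 6.93) and pancreas (2.34 to 5.20, median 2.89) had more reads of miR-146b. Bone marrow (median 0.0619), plasma (0.0545) and jejunum (0.0894) had the lowest ratios. In pancreas this came with a low miR-146a, since miR-146b was only 115 to 140 RPM in 4 of the 5 libraries. Testis 2 and 3, the testis libraries with low miR-146b, still had more miR-146b than miR-146a (1021 against 135 RPM and 491 against 113 RPM).

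The ratio of miR-150 to miR-155 set plasma apart. It was 11.5 to 25.1 in the 5 plasma libraries, with a median of 12.5, and at most 3.04 in any of the other 71. Ileum (0.320 to 0.588), colon (0.341 to 0.447) and bone marrow (0.155 to 0.924) had more reads of miR-155 in every library. Sciatic nerve had the lowest median, 0.0838. In thymus the ratio was 0.423 to 1.06 although between libraries miR-150 differed by 47.2-fold and miR-155 by 26.2-fold.

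**Figure D5:**
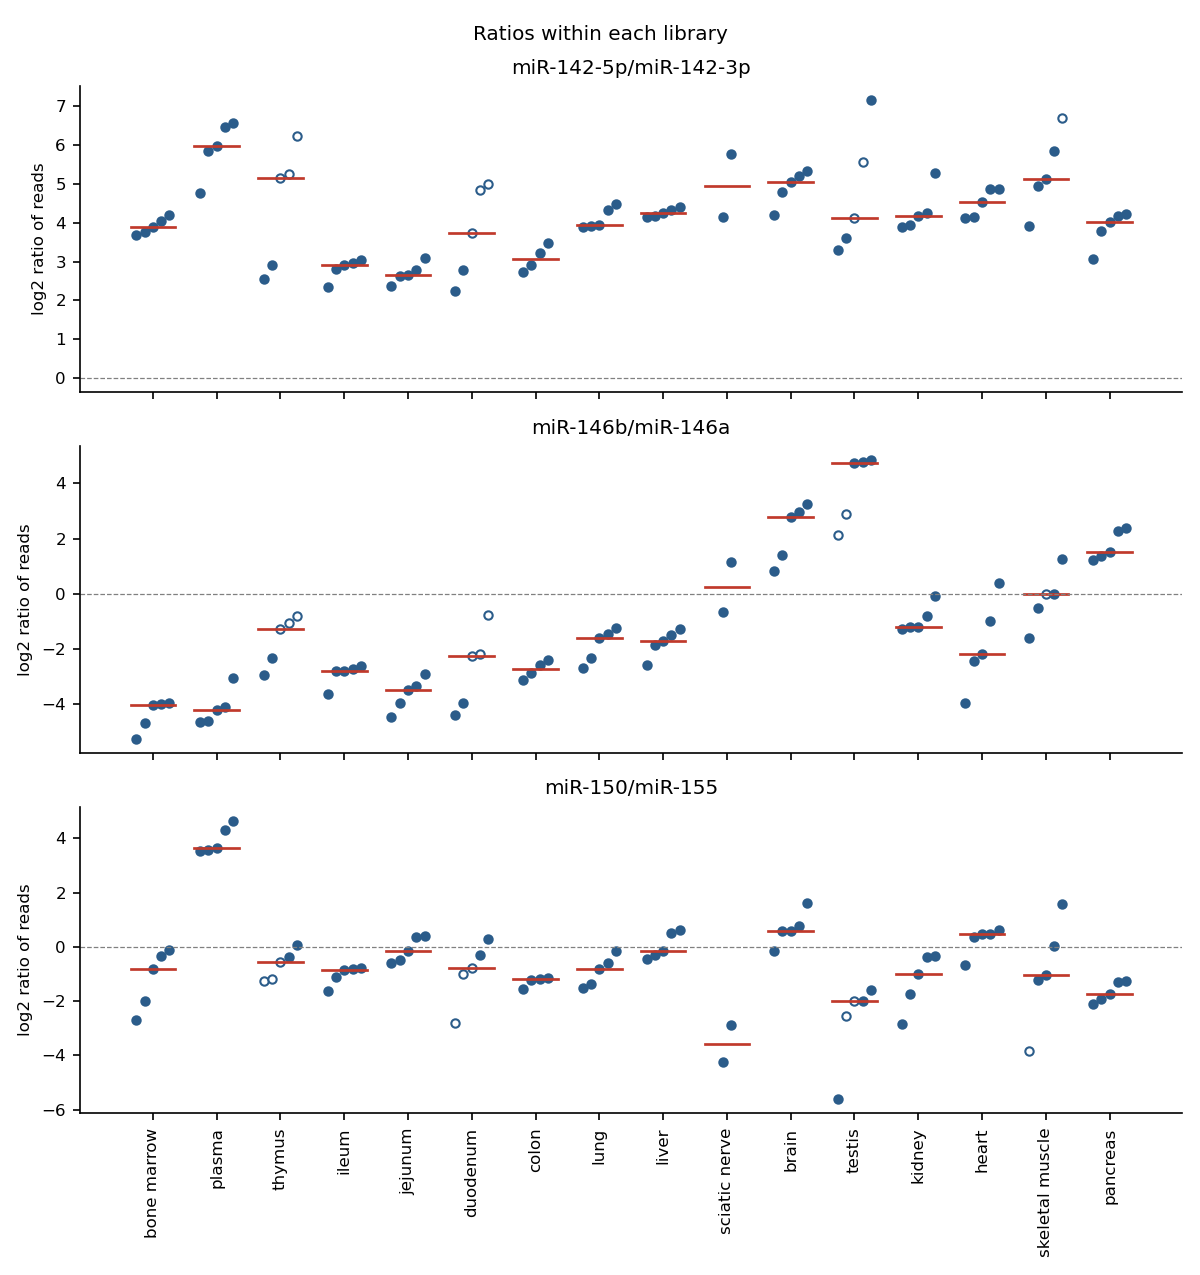
Log2 ratio of reads within each library for miR-142-5p over miR-142-3p, miR-146b over miR-146a and miR-150 over miR-155, by tissue, with red lines for medians and open symbols for the 9 libraries with low markers of their own tissue. The dashed line marks equal reads. In the lowest panel the 5 plasma points, at linear ratios of 11.5 to 25.1, stand above all other libraries.

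Across the 16 tissue medians, on the scale log2(RPM + 1), the miR-142 arms had the closest patterns of any pair of members (Pearson r = 0.96). miR-150 was next to miR-142-5p (0.85), as was miR-155 to miR-146a (0.85). miR-146b had r of -0.23 with miR-142-5p, -0.09 with miR-142-3p, 0.00 with miR-150, 0.40 with miR-146a and 0.48 with miR-155. Within tissues, on deviations from the tissue mean over all 76 libraries, miR-146b did go with miR-146a (0.67, and 0.72 without the 9 libraries), while the miR-142 arms were at 0.86 and at 0.63 without those libraries. These correlations are descriptions: the points share dogs, library depth and the total by which RPM is formed.

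Among the 260 other miRNAs with a tissue median over 100 RPM, those most like each member over the 16 tissues were as follows. For miR-142-5p they were miR-106b (r = 0.88), miR-21-3p (0.81) and miR-425 (0.80). For miR-142-3p they were miR-18a (0.84), miR-106b (0.83) and miR-21-3p (0.83). miR-146a was closest to miR-21 (0.78), miR-148b (0.73) and miR-18a (0.71), and miR-155 to miR-21 (0.68), miR-183 (0.65) and miR-145-3p (0.63). miR-150 was closest to miR-106b-3p (0.72), miR-106a (0.72) and miR-106b (0.72). miR-146b was closest to miR-34c (0.75), which is known from testis, miR-363 (0.74) and miR-106a (0.73), the last of which is also listed for miR-150. By Spearman rank correlation miR-34c was only at rank 14 for miR-146b (0.65), and let-7a was at rank 1 (0.78).

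Of the opposite arms of the other 4 hairpins, the table listed only miR-146b-3p, whose highest value was 9.11 RPM, in testis. In a gene table of the dog assembly UU_Cfam_GSD_1.0, which is not the build the reads were aligned to and is used here for names alone, all 5 member genes were found: MIR142, MIR146A, MIR146B, MIR150 and MIR155. The nearest protein-coding gene was TSPOAP1 for MIR142, CUEDC2 for MIR146B and MRPL39 for MIR155, and MIR146B also overlaps a long noncoding RNA locus. None of the 5 had another miRNA gene within 10000 bases in that table.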

How the data were processed

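Small RNA was sequenced by the authors from 16 tissues. Per the study's methods, adaptors were clipped, only reads that matched the CanFam3.1 assembly of the dog exactly were kept, and reads over known dog, rat or human miRNA loci were counted. How reads that match both miR-146 loci were divided is not given in the sources used here. The deposited table lists read counts per miRNA and library, with a library total, and RPM, the counts divided by that total as made by the authors. It holds only values of at least 1 read, so absent values were taken as 0. The authors' columns of maxima were not used. RPM recomputed from counts and totals differed from the deposited values by at most 2.9e-09 in relative terms. Of 77 labelled samples, 1 colon sample had no values here, and 1 sample name in the table that matched no label was not used. Groups came from the tissue labels.

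The members and marker lists were chosen with earlier results of these data known. The other miRNAs named are the 3 closest to each member by Pearson r over tissue medians, the marker lists and any row a count rests on.

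TE calls used exact rank-sum tests of RPM with Benjamini-Hochberg adjustment over the miRNAs detected in the tissue. The rank-sum and edgeR tests took all libraries as independent, though the same dogs gave all tissues. Counts were tested with edgeR 4.0.16 in R 4.3.3 (its quasi-likelihood test after TMM scaling and the filterByExpr filter), fitted over all tissues with the deposited totals as library sizes and Benjamini-Hochberg adjustment over 480 miRNAs in each comparison. The SE given with a log2 fold change was formed from edgeR's test, as the size of the change divided by the square root of the F statistic. The p-values set differences between tissues against the spread between these libraries, and do not allow for libraries that share a dog. Alternatives were other scalings, no filter, DESeq2 1.42.0, only the tissues compared, medians and leaving out each library. Leaving out the 9 libraries with low own markers, and RPM without the erythroid rows, were chosen after seeing the data. Scripts (Python 3.11.15, scipy 1.17.1) were tested on simulated data. Of 147 pairs of libraries of 1 tissue, none agreed within sampling noise (lowest chi-square per degree of freedom 10.3), so none was treated as a copy of another. This check cannot tell separate dogs from portions of a pool, since libraries made from a pool can also differ by more than sampling noise.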

Additional observations from a re-analysis of the deposited data

Results flagged for a closer look

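Of 90 groups of 4 or 5 libraries, 13 held a library far from the others of its tissue by Dixon's ratio. The cut-off flags about 1 in 20 independent groups of normally distributed values. These groups are of RPM and share libraries between members, so the 13 cannot be set against that rate. In skeletal muscle 4, miR-146a was at 259 RPM (16.4 to 66.3 in the others) and miR-155 at 553 RPM (21.1 to 89.8), and in testis 2 miR-155 was at 263 RPM (108 to 140). Both libraries have low markers of their own tissue. In pancreas 4, miR-146a was at 224 RPM (26.4 to 49.1), miR-146b at 579 RPM (115 to 140) and miR-155 at 132 RPM (65.2 to 73.8). Its smooth muscle list was 39365 RPM against 14885 to 17376 RPM, and its pancreatic list was 180489 RPM. In plasma 2, miR-142-3p was at 1284 RPM (142 to 406) and miR-155 at 240 RPM (25.5 to 64.3). Its erythroid list was the lowest of plasma at 545235 RPM, and its myeloid list was 1550 RPM against 120 to 524 RPM. In colon 5, miR-146a was at 8630 RPM (3648 to 4036) and miR-150 at 1001 RPM (347 to 453), beside a smooth muscle list of 135333 RPM against 322051 to 442033 RPM. The part of these lists in the values was not tested. In thymus 4, 1 of the 2 thymus libraries with high lymphoid markers, miR-146a was at 6208 RPM (618 to 1807). In ileum 5, miR-155 was at 4873 RPM (1295 to 2291), and in bone marrow 4, miR-146b was low at 206 RPM (258 to 276).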

How the results depend on the processing

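No paired analysis was run because the labels carry no dog or replicate number shared between tissues. The same dogs gave the tissues, but which libraries share a dog is not stated, and replicate numbers in accession order only name libraries. Of the 90 calls of members among the edgeR comparisons, none changed direction, and 83 remained with library size scaling, 84 with RLE scaling, 84 with DESeq2, 88 without the filter and 89 without the 9 libraries with low own markers. Calls gained were 4, 4, 3, 2 and 7 in the same order. Leaving out the 9 libraries and the RPM without erythroid rows were chosen after seeing the data. One value outside those calls turned: miR-142-3p in plasma against thymus, at 0.19 with all libraries, was at -1.10 without the 9. The 4 TE calls became 10 when medians replaced means. Those added were miR-142-5p (25.9-fold) and miR-146a (6.59) in bone marrow, and miR-146a (8.42) and miR-150 (8.33) in ileum. The others were miR-146b in brain (9.09) and miR-150 in plasma (7.98). In thymus against bone marrow, the 2 members higher became 1 with library size scaling, RLE scaling, no filter or DESeq2, and 0 when only those tissues were fitted, and the 0 lower became 1 with library size scaling and 2 with RLE scaling or DESeq2. In plasma against bone marrow, the 2 higher became 1 with library size scaling. In ileum against duodenum, the 2 higher became 1 without the 9 libraries. The cause was not tested.

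When each library was left out in turn, TE calls ranged from 2 to 5, members higher over all tissues from 35 to 41 and members lower from 33 to 39. In thymus against bone marrow, 0 to 3 members were higher and 0 to 2 lower. In plasma against bone marrow, 1 to 2 were higher and 3 lower. In plasma against thymus, 1 to 2 were higher and 2 to 3 lower. In ileum against duodenum, 2 to 4 were higher and 0 lower. Scaling moved the median of all miRNAs by over 0.1 in 18 of 20 comparisons. At the depth of testis, skeletal muscle and thymus 2, levels of miR-142-3p rest on a few reads or none.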
